A study of Mus musculus with 2 samples.

Results

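The miR-181 family was described in small RNA libraries from the newborn mouse forebrain. Its 6 loci, Mir181a-1, Mir181b-1, Mir181a-2, Mir181b-2, Mir181c and Mir181d, were found by Ensembl identifier among the 1973 miRNA genes with a row in each deposited count table, and all 6 had a row. The series holds 1 group of 2 libraries, each made from total RNA of a single forebrain of strain B6NCrl at postnatal day 0, pup 1 (replicate 1) and pup 3 (replicate 2). No treatment or allele is named, both animals carry the same donor entry, and sex was not recorded. With no contrast between conditions, what can be given is the level of every locus, the comparison of the 3 clusters in which the loci lie, and how far the 2 animals differ (errors are SDs over n = 2).

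MicroRNAs are cut from a hairpin precursor that has a 5p and a 3p arm, and 1 arm is usually loaded into an Argonaute protein and guides it to messenger RNAs through its seed, bases 2 to 8. The miR-181 family is known for tuning the response of developing T cells to antigen, and in the brain for acting on neuronal messenger RNAs such as that of an AMPA receptor subunit. In mammals its loci lie in 3 paralogous pairs, each transcribed as a unit, with an a-type or c-type hairpin beside a b-type or d-type hairpin.

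The mature sequences are shown first because they set which reads a locus could be given. Both arms of all 6 loci matched an entry of RefSeq (build GRCm38.p6). The 6 loci encode 4 different 5p arms, which share 1 seed, written in capitals below and carried by no other mature miRNA in that table.
miR-181a-5p (Mir181a-1 and Mir181a-2): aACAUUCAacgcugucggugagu
miR-181b-5p (Mir181b-1 and Mir181b-2): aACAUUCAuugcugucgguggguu
miR-181c-5p (Mir181c): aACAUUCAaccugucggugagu
miR-181d-5p (Mir181d): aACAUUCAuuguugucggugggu

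The paralogs encode identical 5p arms in the a and b pairs, and all the other differences between 5p arms lie outside the seed. Counted from base 1 at the 5′ end, without gaps, miR-181b-5p differs from miR-181a-5p by A9U, C10U and A21G. miR-181d-5p differs from miR-181b-5p by C12U over the bases they share in length. miR-181c-5p is miR-181a-5p with the base at position 11 left out.

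The 3p arms are different at all 6 loci, and they fall into 4 seeds, again in capitals. None of these seeds was found in a mature miRNA outside the family.
miR-181a-1-3p (Mir181a-1): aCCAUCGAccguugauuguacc
miR-181c-3p (Mir181c): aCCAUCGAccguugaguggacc
miR-181a-2-3p (Mir181a-2): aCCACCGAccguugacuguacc
miR-181b-1-3p (Mir181b-1): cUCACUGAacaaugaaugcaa
miR-181b-2-3p (Mir181b-2): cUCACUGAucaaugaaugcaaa
miR-181d-3p (Mir181d): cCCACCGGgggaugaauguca

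The 3p arm of Mir181a-1 therefore has the seed of Mir181c and not that of Mir181a-2. miR-181a-2-3p differs from miR-181a-1-3p by U5C, inside the seed, and U16C. miR-181c-3p differs from miR-181a-1-3p by U16G and U19G, both outside it. miR-181b-2-3p differs from miR-181b-1-3p by A9U over the bases they share in length, just past the seed.

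The whole hairpins of the copies show how far the identical stretch reaches. Capitals mark bases that lie in a run of at least 18 bases found in another of the 2202 miRNA hairpins of the GENCODE M21 annotation, on either strand.
Mir181a-1: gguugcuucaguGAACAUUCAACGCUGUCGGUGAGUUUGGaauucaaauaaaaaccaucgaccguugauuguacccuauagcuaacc
Mir181a-2: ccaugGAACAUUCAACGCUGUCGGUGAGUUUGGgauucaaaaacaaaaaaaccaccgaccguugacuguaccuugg
Mir181b-1: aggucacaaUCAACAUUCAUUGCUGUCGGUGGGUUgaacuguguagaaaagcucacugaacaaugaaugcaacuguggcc
Mir181b-2: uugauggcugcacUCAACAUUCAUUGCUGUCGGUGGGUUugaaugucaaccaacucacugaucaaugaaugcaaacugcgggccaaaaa

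The shared stretch was 28 bases long in the a pair and 26 in the b pair, and in each it covered the whole 5p arm. In the a pair it ran on past both ends of the arm, and in the b pair it began before the arm and ended with the arm's last base. Its only other carrier among the hairpins was the copy of the same letter. In Mir181c and Mir181d no run of 18 bases was shared with another hairpin: all 72 windows of that length in Mir181c and all 55 in Mir181d were particular to the locus. The longest stretch of a 3p arm found in another family hairpin was 15 bases, between Mir181a-1 and Mir181c.

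**Figure D1:**
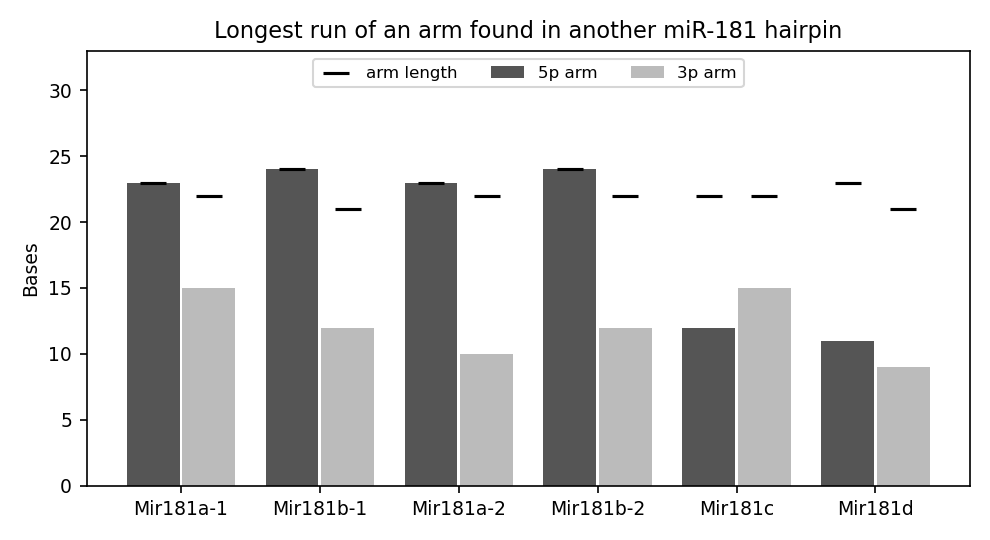
Longest run of bases of each mature arm that occurs in another miR-181 hairpin (bars, in bases; dark for the 5p arm, light for the 3p arm) with the arm's own length as a black dash. The bar reaches the dash for the 5p arms of the 4 a and b loci and for no other arm; the other 5p arms share 12 and 11 bases and the 3p arms at most 15.

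Reads that map to more than 1 place stand in a row of their own in the deposited tables and are counted at no locus. A read that lies wholly within a shared stretch matches both copies equally. Counts at Mir181a-1, Mir181a-2, Mir181b-1 and Mir181b-2 are therefore counts of reads that reach a base that tells the copies apart, such as those of the 3p arms, while counts at Mir181c and Mir181d can come from either arm. The tables do not divide a locus by arm. The row of reads with several places held 2810170 reads in pup 1 and 2596301 in pup 3, which is 41.4 and 43.2 reads for each count at the 6 loci, and how many of them are miR-181a-5p or miR-181b-5p cannot be read from the tables.

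The gene-strand counts of all loci summed to 2742746 for pup 1 and 2427066 for pup 3. Levels are given as percent of these sums or as CPM, that is, scaled to 1000000 in each library. Of the neuronal markers, Mir137 stood high in both libraries, at 28264 and 23308 CPM, as did Mir128-1, at 10765 and 11337 CPM. Mir124a-1, another neuronal locus, was low, at 5.47 and 8.65 CPM (15 and 21 counts). This locus has numbered copies, and reads that match several places are counted at none of them. How many reads of miR-124 were left out in this way was not examined, so the low count gives no level of miR-124. Of markers of other tissues, Mir126a of vessel endothelium had 30517 and 35573 CPM, Mir223 of myeloid cells 144 and 147, Mir150 of lymphocytes 184 and 208, Mir122 of liver 48.1 and 63.0, and Mir206 of skeletal muscle 7.29 and 4.53. Mir142 of white blood cells had no row. In whole tissue, fewer cells of a type and less RNA per cell cannot be told apart.

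Of the reads counted at the 6 loci, most lay in the pair on chromosome 8. Relative to library totals the 2 pups gave nearly the same share for the family. DESeq2 size factors, another scale, were 1.19 for pup 1 and 0.844 for pup 3. The family's level was not computed on that scale, and the likeness belongs to library totals. The 6 loci together had 67847 counts in pup 1, or 2.47% of the library (2.46 to 2.49% as exact 95% Clopper-Pearson limits), and 60095 in pup 3, or 2.48% (2.46 to 2.50%). All such intervals describe counting error alone, and without molecular identifiers in the labels, amplified copies cannot be told from separate molecules.

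Within this total the split between clusters differed between the animals. The Mir181c/Mir181d pair held 67.5% of the family's counts in pup 1 and 61.5% in pup 3. The Mir181a-1/Mir181b-1 pair held 27.3% and 34.1%, and the Mir181a-2/Mir181b-2 pair 5.19% and 4.42%. The first of these pairs lost and the second gained, while the third stayed the smallest in each animal.

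**Figure D2:**
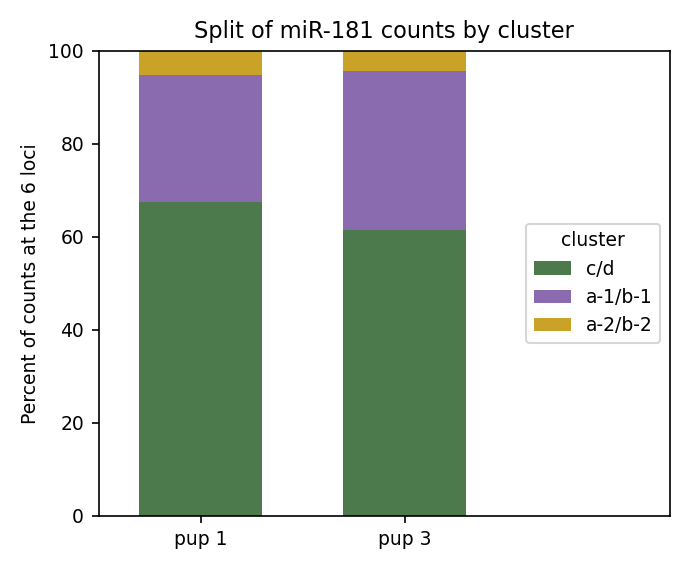
Percent of the counts at the 6 miR-181 loci (vertical axis) that each cluster held in pup 1 and pup 3, stacked to 100. The pair c/d fills 67.5 and 61.5 percent, a-1/b-1 27.3 and 34.1 percent, and a-2/b-2 5.19 and 4.42 percent.

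As a fold, the counts of c/d exceeded those of a-1/b-1 by 2.47 in pup 1 (95% exact interval 2.43 to 2.51) and 1.80 in pup 3 (1.77 to 1.83), 2.14 ± 0.470 in the mean. Over a-2/b-2, c/d was 13.0-fold and 13.9-fold higher (13.5 ± 0.638). The pair a-1/b-1 was 5.27-fold and 7.72-fold higher than a-2/b-2 (6.50 ± 1.73). In these counts the order c/d, a-1/b-1, a-2/b-2 was the same in both pups. With 2 animals a two-sided exact permutation test of paired values cannot give a p below 0.5, so none was run. These folds compare counts of reads that map to 1 place. Reads that lie wholly within the shared stretches of the a and b loci are not among them. Among miRNA hairpins, this omission touches a-1/b-1 and a-2/b-2 but not c/d. Matches elsewhere in the genome were not searched for any of the loci. How many reads lay within the shared stretches is not known, so the order with them included cannot be given.

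Mir181c (ENSMUSG00000065483.1 in the tables) lies at chromosome 8, 84178873 to 84178961 on the minus strand of mm10 (GRCm38), in an intron of Nanos3, a gene of germ cell survival, on the same strand. It had 34247 counts in pup 1 and 28405 in pup 3, or 12486 and 11703 CPM (12095 ± 554), and was the 15th most abundant of all loci in each pup. Mir181d (ENSMUSG00000076338.1; chromosome 8, 84178716 to 84178787) lies 85 bases away in the same intron. It had 11532 and 8539 counts, or 4205 and 3518 CPM (3861 ± 485), with ranks 42 and 50. Mir181c was 2.97-fold above its partner in pup 1 (2.91 to 3.03) and 3.33-fold in pup 3 (3.25 to 3.41), so the ratio differed between the animals by more than counting error, by 1.12 times. This pair shares no run of 18 bases with any other hairpin.

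Mir181a-1 (ENSMUSG00000065565.1) lies at chromosome 1, 137966455 to 137966541 on the plus strand, in an intron of the noncoding transcript Gm4258, and its end reaches into the first bases of the long noncoding RNA A430106G13Rik. It had 18529 and 20481 counts, or 6756 and 8439 CPM (7597 ± 1190.0). Mir181b-1 (ENSMUSG00000065458.1; chromosome 1, 137966639 to 137966718) lies 97 bases downstream, within an exon of A430106G13Rik. It had 21 and 15 counts, or 7.66 CPM in pup 1 (95% exact interval 4.74 to 11.7) and 6.18 in pup 3 (3.46 to 10.2). Mir181a-1 stood 882-fold above its neighbour in pup 1 (577 to 1426) and 1365-fold in pup 3 (828 to 2440.0), and the intervals of the 2 pups overlap. The family's widest gap between partners thus lies within the pair on chromosome 1.

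Mir181a-2 (ENSMUSG00000065423.1) lies at chromosome 2, 38852735 to 38852810 on the plus strand. It sits within the bounds of Nr6a1, which is transcribed from the opposite strand, and no gene other than a miRNA overlaps it on its own strand. It had 1381 and 1184 counts, or 504 and 488 CPM (496 ± 11.1). Mir181b-2 (ENSMUSG00000065578.1; chromosome 2, 38853830 to 38853918) lies 1019 bases downstream and had 2137 and 1471 counts, or 779 and 606 CPM (693 ± 122). It stood 1.55-fold above its partner in pup 1 (1.45 to 1.66) and 1.24-fold in pup 3 (1.15 to 1.34). In this pair the b hairpin held more counts than the a hairpin, the reverse of the pair on chromosome 1.

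**Figure D3:**
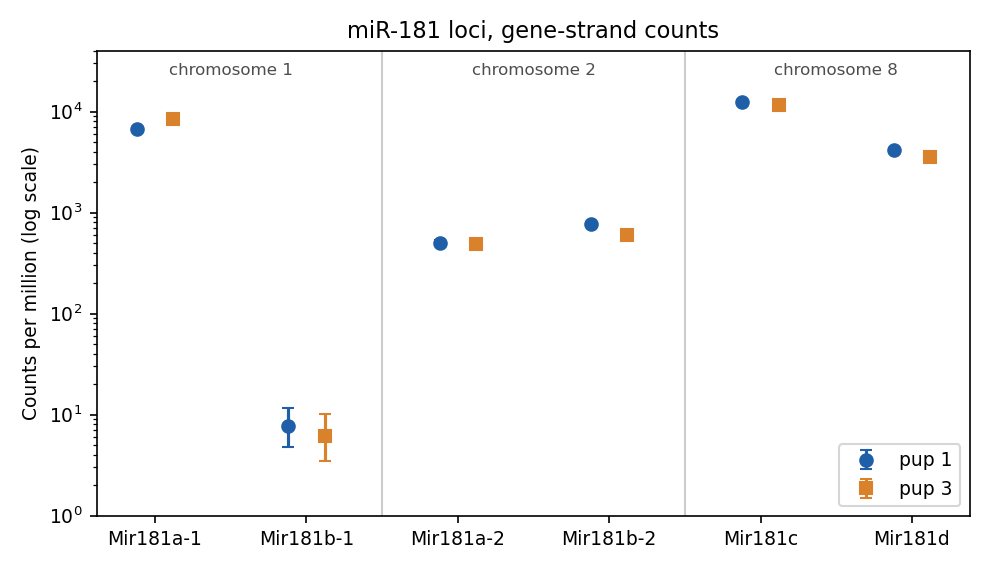
Level of each miR-181 locus in CPM (log scale) in pup 1 (circles) and pup 3 (squares), with 95% exact intervals for counting error, grouped by chromosome. Mir181c lies highest at 12486 and 11703 CPM and Mir181b-1 lowest at 7.66 and 6.18; for the other loci the interval is narrower than the symbol.

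The order of the 6 levels was Mir181c, Mir181a-1, Mir181d, Mir181b-2, Mir181a-2, Mir181b-1 in each pup. Every neighbour in this order lay further apart than the sum of the 2 SDs, and no ranges overlapped. The closest neighbours were Mir181b-2 and Mir181a-2, whose means lay 197 CPM apart against a sum of SDs of 133 CPM. All 6 loci had 0 counts on the opposite strand in both libraries, so the unstranded counts of each locus are the same. Cloning steps favour some small RNA sequences over others, and levels of different loci are compared here only as counts.

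In these counts the copies that encode the same 5p arm thus differed in opposite directions. Of the a copies, that on chromosome 1 was 13.4-fold higher than that on chromosome 2 in pup 1 (12.7 to 14.2) and 17.3-fold in pup 3 (16.3 to 18.4). Of the b copies, that on chromosome 2 was 102-fold higher in pup 1 (66.4 to 165) and 98.1-fold in pup 3 (59.3 to 176). Since their 5p arms are identical, these folds rest on bases outside the shared stretches shown above.

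The same comparison was made for every pair of loci in the tables that share 1 whole mature arm and differ in the other. RefSeq held both arms for 582 loci with a row. Among them were 23 such pairs, of which 12 had at least 10 counts at both loci in both pups. For the 10 pairs outside the family the mean fold between copies ran from 1.01 (Mir7-1 and Mir7-2) to 33.5 (Mir92-1 and Mir92-2), with a median of 2.39, and only the Mir92 pair was above 10-fold. The b pair of miR-181, at 99.9 ± 2.61, was the highest of the 12 and the a pair, at 15.4 ± 2.74, the third. The minimum of 10 counts leaves out pairs in which 1 copy had almost no counts, such as Mir194-1 (3 and 0 counts) and Mir194-2 (240 and 149), so the 12 do not show how unusual a wide gap is. The pairs were listed after the values of the miR-181 loci were known.

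**Figure D4:**
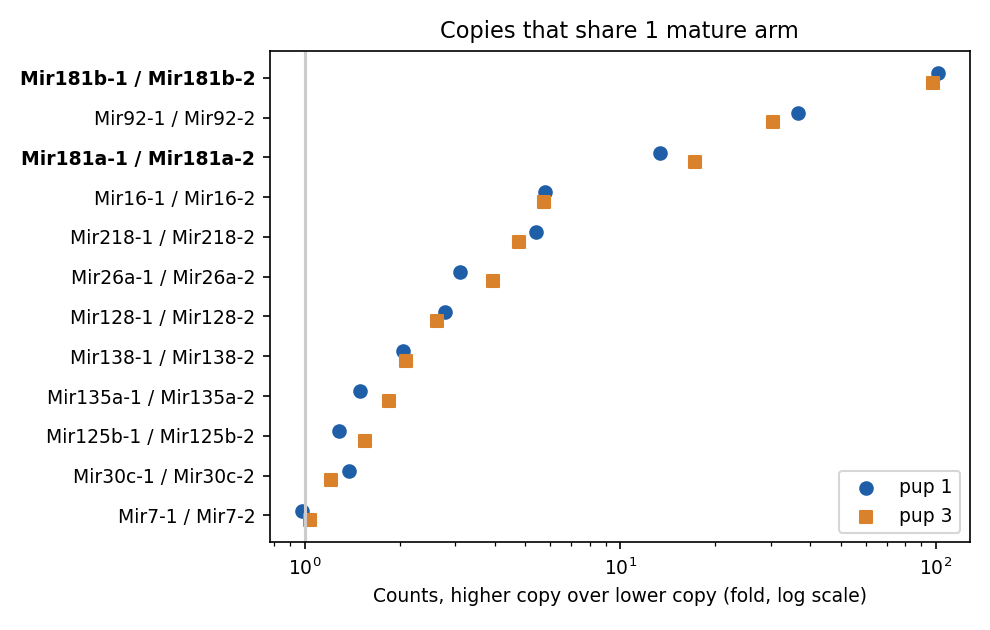
Fold between the counts of the higher and the lower copy (log scale) in pup 1 (circles) and pup 3 (squares), for the 12 pairs of loci that share 1 mature arm and had at least 10 counts at both loci in both pups. The miR-181 pairs, in bold, lie at 102 and 98.1 (b) and at 13.4 and 17.3 (a), and the other pairs, save Mir92-1 and Mir92-2, lie under 10.

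Detection was also counted by how many arms a locus shares. Of 508 loci whose arms were both found in no other hairpin, 222 (43.7%) were detected with at least 10 counts in each pup. Of 56 loci with 1 arm in another hairpin, the class of the 4 a and b loci, 34 (60.7%) were detected. Of 18 loci with both arms in another hairpin 3 (16.7%) were. The classes were not matched on anything else.

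The 2 libraries were then compared locus by locus. Each side is 1 animal, so the test, Fisher's exact test of a locus against the rest of its library (two-sided, with Benjamini-Hochberg adjustment across the 400 loci with at least 10 summed counts), compares these libraries and not conditions. It called 56.5% of the 400 loci, 10.2% as higher and 46.2% as lower in pup 3. On the scale of CPM + 1 these loci had a median log2 ratio, pup 3 over pup 1, of −0.31, so a ratio is also given relative to it.

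Among the 6 members, 1 was called higher in pup 3, 3 lower, and 2 did not pass, a share close to that of all loci. Mir181a-1 was the member called higher, at a log2 ratio of 0.32 (adjusted Fisher's exact p = 1.47e-106) which is 0.64 over that median. Only 40 of the 400 loci had a higher ratio, and it was called higher with DESeq2 size factors (0.63) and TMM-adjusted totals (0.57) too. Its partner Mir181b-1 had −0.27 (adjusted exact p = 0.719), from 21 and 15 counts, at which a difference of this size was not detectable, and 0.0039 with size factors.

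The other members lay near the median of all loci or above it. Mir181c had −0.09 (adjusted exact p = 1.80e-15), which is 0.22 above the median, and it turned to 0.22 with size factors. Mir181d had −0.26 (adjusted exact p = 2.36e-35), 0.057 above the median, and turned to 0.056 with size factors. Mir181b-2 had −0.36 (adjusted exact p = 3.34e-13), −0.048 relative to the median, and did not pass with size factors, at −0.049 (adjusted p = 0.478, exact binomial test). Mir181a-2 had −0.046 (adjusted exact p = 0.531), 0.27 above the median, and passed as higher with size factors, at 0.27. By ratio alone, called or not, no member differed by 1.5-fold or more relative to library totals. Of the 400 loci 30% did, 4.75% higher and 25.2% lower in pup 3. Among those, 12 higher and 68 lower loci were also called. With size factors 1 member, Mir181a-1, reached 1.5-fold, but the share of all loci that did on that scale was not counted.

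**Figure D5:**
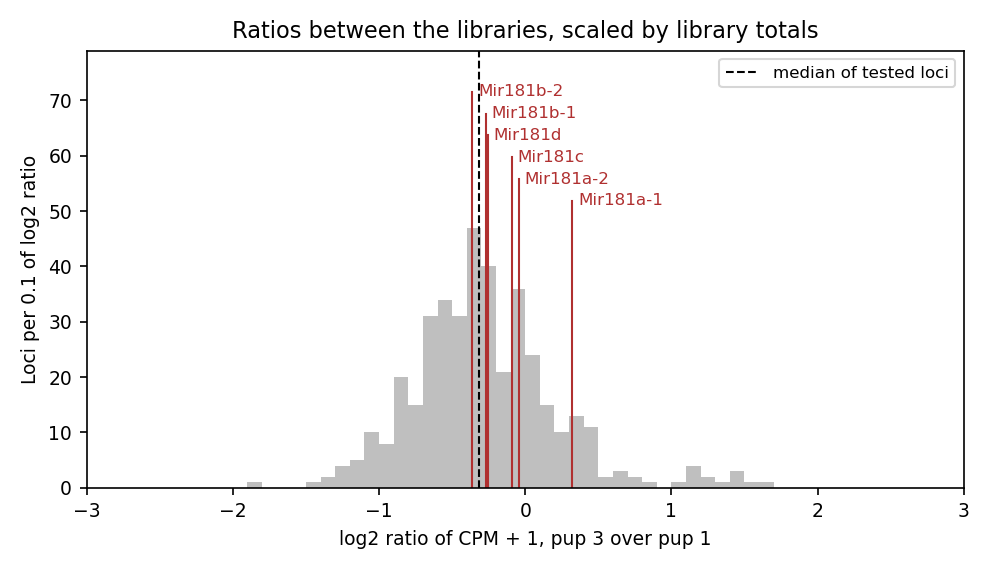
Number of loci per 0.1 of log2 ratio of pup 3 over pup 1 (grey, 400 loci, CPM + 1 with library totals as the scale), with the 6 miR-181 loci as red lines and the median of all tested loci, −0.31, as a dashed line. Mir181a-1 lies at 0.32, to the right of the other members, which lie between −0.36 and −0.046; with size factors the ratios of Mir181a-2, Mir181b-1, Mir181c and Mir181d lie above 0.

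Ratios within a library do not depend on the scale. Mir181c was 1.85-fold above Mir181a-1 in pup 1 (1.82 to 1.88) and 1.39-fold in pup 3 (1.36 to 1.41). Mir181a-1 was 1.61-fold above Mir181d in pup 1 (1.57 to 1.64) and 2.40-fold in pup 3 (2.34 to 2.46). Mir181d was 5.40-fold above Mir181b-2 in pup 1 (5.15 to 5.65) and 5.80-fold in pup 3 (5.49 to 6.14). The first of these folds fell and the second rose by more than counting error, and the third had overlapping intervals. Mir126a, the vessel locus, was also higher in pup 3 with library totals, at a log2 ratio of 0.22, while Mir150 at 0.18 and Mir223 at 0.026 did not pass. Their part in the difference at Mir181a-1 was not tested.

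Other loci were set beside the family from lists, with calls relative to library totals, by which 10.2% of all tested loci were higher and 46.2% lower in pup 3. With size factors, 98 of the 400 tested loci were higher and 83 lower. Of 18 neuron-enriched loci 16 were tested, and 3 were called higher and 10 lower in pup 3, with a median log2 ratio of −0.43. With size factors 5 were higher and 6 lower. They held 5.34% of the counts in pup 1 and 4.63% in pup 3, led by Mir137, Mir128-1 and Mir128-2 (3858 and 4309 CPM). Some of these loci, such as the Mir128 and Mir138 copies, share a whole mature arm. Reads that lie wholly within such an arm are not in these shares. Of the 7 white blood cell loci 6 had a row, none was called higher and 2 were called lower, with a median of −0.093. With size factors 3 were higher and 1 lower. They held 1.07% and 0.929%, nearly all from Mir342 (10258 and 8859 CPM), which lies within the gene Evl, a regulator of actin expressed well beyond blood. Mir150 and Mir223 followed at the levels given above, far below Mir181c. Of 19 loci of the miR-30, miR-29, miR-125 and miR-23/27/24 families, which also have members in several clusters, 18 had a row and were tested. Of these, 1 was called higher and 10 lower, with a median of −0.26, while with size factors 7 were higher and 3 lower. The highest in level were Mir30e (17282 and 13984 CPM), Mir23b (9640 and 9015) and Mir125a (7237 and 6879). The median of the 6 miR-181 loci was −0.18 beside −0.31 for all tested loci.

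The loci closest in level, by Euclidean distance between log2(CPM + 1) over the 2 libraries, were named for the 5 members with at least 100 summed counts. Mir181c lay nearest to Mir128-1 (distance 0.22) and Mir17 (0.36), and Mir181a-1 nearest to Mir15a (0.24) and Mir411 (0.30). Mir15a was, like Mir181a-1, higher in pup 3, at 5762 and 8063 CPM, while Mir411 had 6821 and 6846. Mir181d lay nearest to Mir143 (0.08) and Mir151 (0.11), Mir181b-2 to Mir467e (0.07) and Mir330 (0.12), and Mir181a-2 to Mir674 (0.09) and Mir221 (0.18). With 2 libraries this likeness is one of level and says little of pattern.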

How the data were processed

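MicroRNA libraries from 2 newborn forebrains were used. The authors deposited raw read counts per miRNA gene, not normalized, on assembly mm10 with annotation release M4, per the text deposited with the files. For the aligner and the counter, the name is not given in the sources used here. Of 3 count columns (both strands, gene strand, opposite strand, as read from their values) the gene strand was used, with 97.6% and 98.1% of counts. The 4 rows that name no gene were left out of totals. Reads with several places made up 42.2% of 6657203 reads in pup 1 and 44.1% of 5883027 in pup 3, reads outside loci 3.23% and 2.27%, and unmapped reads 13.4% and 12.3%.

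Positions came from GENCODE M21 (GRCm38), which matched 1894 of 1973 rows, and sequences from RefSeq (GRCm38.p6). The Mir181c identifier has version 1 in the tables and 2 in M21. Mature sequences were searched in the miRNA hairpins, not in the whole genome as planned, because genome sequence was not used here. The quasi-likelihood test of edgeR needs a contrast between groups, so Fisher's exact test was used, with an adjusted p of 0.05, and an exact binomial test under other scales. The tests were checked on simulated counts that held counting error alone. Between these libraries the chi-square per degree of freedom over 331 detected loci was 209, far above counting error. The check therefore does not cover the spread between these animals. Labels do not say how far the animals' libraries were handled apart, and p-values cover counting error. Members, lists and the rule for named loci (the 6 members, the 2 nearest loci by level, the 3 highest of each list, and the markers) were chosen with earlier results of these data known. Loci of copy pairs were named after their values were seen. The alternatives were other scales, filters, pseudocounts, denominators, the unstranded column and leaving out a replicate. TMM came from edgeR 4.0.16 and size factors from DESeq2 1.42.0, run in R 4.3.3. The exact tests and intervals came from scipy 1.17.1, in Python 3.11.15, and figures from matplotlib 3.10.9.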

Additional observations from a re-analysis of the deposited data

How the results depend on the processing

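No paired analysis was possible because the series holds 1 group. With log2(CPM + 1) levels the folds between clusters and between partners moved by less than their SD, except that Mir181b-2 over Mir181b-1 fell from 99.9 to 87.3. Folds are the same with both strands counted, since no member has counts on the opposite strand. With 2 replicates, leaving out 1 gives the value of the other pup and is no check of stability. Relative to library totals the family share was 2.47% with an SD of 0.00166, and 2.42% with both strands counted. That small SD belongs to this scale, and the family's level was not computed with size factors or TMM. The clusters held 1.60% (c/d), 0.760% (a-1/b-1) and 0.119% (a-2/b-2) of the library. Without the most abundant locus in the total, shares were 3.39% (family), 2.18% (c/d), 1.04% (a-1/b-1) and 0.162% (a-2/b-2), and with all reads as the total 1.02%, 0.658%, 0.314% and 0.0490%, by construction of the denominator.

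Calls between the libraries depended on the scale. With DESeq2 size factors 4 members were called higher and 0 lower, and of all loci 98 higher and 83 lower, against 41 and 185 with totals. With TMM-adjusted totals 3 members were higher and 1 lower, and of all loci 82 and 104. Ratios that turned sign were those of Mir181b-1, which passed on no scale (0.0039 with size factors), Mir181a-2 (0.27 with size factors, 0.20 with TMM), Mir181c (0.22 and 0.16) and Mir181d (0.056 with size factors). With a minimum of 1.5-fold relative to totals, 0 members were called in either direction, and of all loci 12 higher and 68 lower. With size factors 1 member, Mir181a-1, passed it, and all loci were not counted at that minimum on that scale. Other filters, pseudocounts and the unstranded column changed no call of a member, except that Mir181b-1 had too few counts for the minimum of 50. Matching by an 18-base run left the detected shares within their exact intervals. Depth limits Mir181b-1 alone among the members.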
